A study of Gallus gallus with 8 samples.

Results

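This report describes 10 genes of glycolysis and lactate metabolism in the developing chicken eye, picked by gene symbol from the 16700 rows of the deposited table. The genes are HK1, HK2, TPI1, GAPDH, PGK1, PGAM1, ENO1, ENO2, LDHA and LDHB. Reads were counted on 9 of them. HK2, which encodes hexokinase 2, is listed at 0 in all 8 libraries, inside an unbroken run of 425 rows that are all listed at 0, so its 0 is not read as a level and it is not described further. The list was drawn up with earlier results of these data known, and the maximum of GAPDH at E16 was a value behind its choice. GAPDH is therefore described without a test.

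Whole retina was sequenced at E8, E16 and E18 (embryonic days), and whole cornea at E18, with 2 libraries in each of the 4 groups. The embryos were untreated Cobb/Hubbard F1 hybrids, and the retina had been freed of its pigment epithelium. The study's sample sheet lists 8 chickens, while its sample list numbers them 1 and 2 within each group, so whether the E18 retina and cornea came from the same birds cannot be told. Depth ran from 15662779 to 45670254 reads on genes. Values are normalized counts, meaning reads on a gene divided by the size factor of its library. Tests were run with limma on log2(normalized count + 1) over all 13194 genes with enough reads, with Benjamini-Hochberg adjustment, and called genes are those with an adjusted p below 0.05. All 9 genes with reads passed the read filter, run once over all libraries, and each had 251 reads or more in every library. Levels are compared between groups and not between genes, because transcript lengths were not used here.

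The tissue labels fitted the defining markers. PRPH2, a structural protein of photoreceptor outer segments, had 10555 and 10177 normalized counts in E18 retina and was listed at 0 in both cornea libraries. KRT12, a keratin of the corneal epithelium, had 278539 and 256680 normalized counts in cornea and 3.76 and 2.27 in E18 retina. The summed level of 8 photoreceptor markers ran from 3262 to 4339 normalized counts at E8, from 113172 to 116276 at E16, from 194728 to 195787 at E18 and from 1754 to 2094 in cornea. That of 3 Müller glia markers ran from 7032 to 7754, from 44847 to 46631, from 114003 to 114754 and from 1537 to 3549 in the same order. That of 6 markers of precursor and cycling cells went the other way in the retina, from 79893 to 97259 at E8, from 15865 to 16253 at E16 and from 11111 to 11928 at E18. Summed, 4 bipolar and amacrine markers held 20588 to 23325 at E8, 23564 to 25027 at E16 and 24249 to 25963 at E18. These 4 did not move alike, with 2 called higher and 1 lower between E8 and E18. The mean normalized count of VSX1 fell from 18288 to 12611, and that of SLC32A1 rose from 863 to 7643. The 2 ganglion cell markers with reads held 8376 to 9261 at E8, 10570 to 11328 at E16 and 23327 to 26830 at E18. These 2 did not move alike either. NEFM had rising means of 4793, 8468 and 22044 normalized counts in the same order, while ISL1 had means of 4026, 2482 and 3034. The marker sums thus differ in how far they move with the stages compared here. The part of these cell types in the changes below was not tested. In bulk tissue, fewer cells of a type and less RNA per cell cannot be told apart.

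Glycolysis splits glucose into pyruvate in the cytosol and yields ATP and NADH. Hexokinase traps glucose in the cell, triosephosphate isomerase and GAPDH carry the triose phosphates to the step that makes NADH, and phosphoglycerate kinase, phosphoglycerate mutase and enolase lead on towards pyruvate. Lactate dehydrogenase turns pyruvate into lactate and restores NAD+, or runs in reverse. The mature retina is known for making lactate even when oxygen is present, and photoreceptors are among the cells that use the most glucose. GAPDH is also widely used as a reference gene for measurements of other transcripts.

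Every gene with reads stood higher in E18 retina than in E8 retina and higher in E18 retina than in E18 cornea, with no overlap between the 2 libraries of each group, an arrangement found in 43.6% and 42.0% of all genes tested. Between E16 and E18, ENO2, PGK1 and HK1 rose, TPI1, PGAM1, ENO1, LDHA and LDHB were not called, and GAPDH, which was not tested, stood lower at E18. No difference between genes was tested, and none of the 3 rises was called without E16 replicate 1 or without E18 retina replicate 1. ENO2, the neuronal enolase, had the largest change of the 9 genes in the retina, from about 983 normalized counts at E8 to 59003 at E18.

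**Figure D1:**
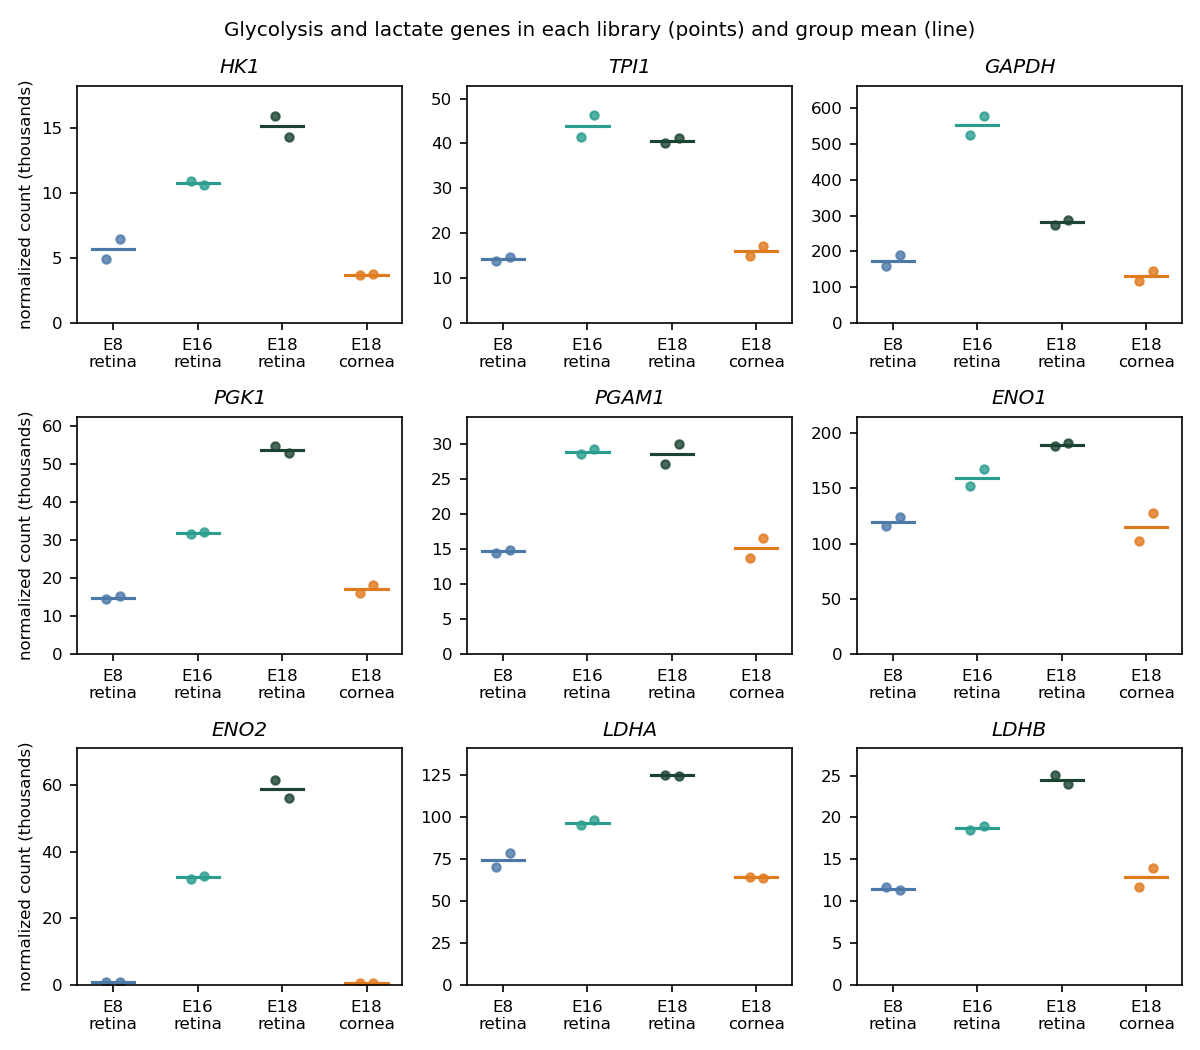
Normalized counts, divided by 1000, of the 9 genes with reads (1 panel each, axis from 0), with a point for each of the 2 libraries in a group and a line at the group mean. GAPDH is highest at E16 (mean 552313 normalized counts), TPI1 has both E18 retina libraries below both E16 libraries, PGAM1 overlaps between these stages, and the other 6 genes have their highest mean in E18 retina.

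GAPDH encodes the dehydrogenase of the triose step. Its libraries held 159641 and 188559 normalized counts at E8, 526159 and 578466 at E16, 273354 and 288253 at E18, and 118648 and 146376 in cornea. Both E16 libraries lay above all others, and no groups overlapped. The group means were 174100 ± 20449 (SD, n = 2), 552313 ± 36986, 280803 ± 10536 and 132512 ± 19606 normalized counts. The mean at E16 was 3.17 times that at E8, and the highest of the 4 group means was 4.17 times the lowest. On the log2 scale the difference was 1.67 for E16 against E8, -0.97 for E18 against E16, and 1.09 for E18 retina against cornea. Of all genes in the table, GAPDH took the most reads in the 4 libraries of E16 and E18 retina, with 2.12% and 2.37% of the reads on genes at E16 and 1.08% and 1.14% at E18. In the E8 libraries its share was 0.597% and 0.71%, and in the cornea libraries 0.411% and 0.468%.

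Hexokinase 1, encoded by HK1, catalyses the entry step. HK1 had 4957 and 6500 normalized counts at E8, 10914 and 10631 at E16, 15997 and 14333 at E18, and 3699 and 3775 in cornea. No groups overlapped, and the levels ran upwards from cornea through E8 and E16 to E18 retina. HK1 rose by a log2 fold change of 0.92 between E8 and E16 (standard error 0.14, limma adjusted p = 0.000449). It rose by a further 0.49 to E18 (standard error 0.14, limma adjusted p = 0.0432). That call was lost with the replicate number as a block (limma adjusted p = 0.0561), with values scaled to library totals (0.0555), and without either E16 library (0.174 and 0.189), either E18 retina library (0.28 and 0.0993) or either cornea library (0.0564 and 0.0563).

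TPI1 encodes triosephosphate isomerase, which interconverts the triose phosphates ahead of GAPDH. Its normalized counts were 13781 and 14648 at E8, 41438 and 46380 at E16, 40073 and 41248 at E18, and 14920 and 17268 in cornea. The E8 and cornea libraries were low and those of E16 and E18 retina high, with both E18 libraries below both E16 libraries. TPI1 rose by 1.63 on the log2 scale between E8 and E16 (standard error 0.13, limma adjusted p = 1.05e-05). The log2 fold change from E16 to E18 was -0.11 (standard error 0.13, limma adjusted p = 0.589).

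PGAM1, phosphoglycerate mutase, acts between PGK1 and enolase. It held 14420 and 14871 normalized counts at E8, 28534 and 29215 at E16, 27081 and 29930 at E18, and 13736 and 16590 in cornea. The libraries of E16 and E18 overlapped, as did those of E8 and cornea. The log2 fold change was 0.98 from E8 to E16 (standard error 0.13, limma adjusted p = 0.000209) and -0.02 from E16 to E18 (standard error 0.13, limma adjusted p = 0.937), which was 0.0519 without E18 retina replicate 1.

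PGK1, phosphoglycerate kinase, makes ATP in the step after GAPDH. Its normalized counts were 14346 and 15280 at E8, 31690 and 32223 at E16, 54677 and 52853 at E18, and 15931 and 18193 in cornea. The level rose at both steps, with a log2 fold change of 1.11 between E8 and E16 (standard error 0.12, limma adjusted p = 6.84e-05). From E16 to E18 it was 0.75 (standard error 0.12, limma adjusted p = 0.00723), a call lost without E16 replicate 1 (0.0701), E16 replicate 2 (0.0599) or E18 retina replicate 1 (0.0834).

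Enolase is encoded by ENO1, found in most cells, and ENO2, a marker of mature neurons. ENO2 had 958 and 1007 normalized counts at E8, 32005 and 32680 at E16, 61716 and 56289 at E18, and 463 and 537 in cornea. The 4 libraries of E16 and E18 retina stood far above the other 4. ENO2 rose by a log2 fold change of 5.04 between E8 and E16 (standard error 0.11, limma adjusted p = 2.91e-08), or 32.9-fold. Only 1.90% of all genes tested had a higher log2 fold change in that comparison. Between E16 and E18 the log2 fold change was 0.87 (standard error 0.11, limma adjusted p = 0.00438), a call lost without E16 replicate 1 (0.0509) or E18 retina replicate 1 (0.066).

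ENO1 had 116007 and 124001 normalized counts at E8, 152103 and 167183 at E16, 187988 and 190719 at E18, and 102230 and 127991 in cornea. Its E8 and cornea libraries overlapped, and the retina stages lay apart from each other in rising order. ENO1 rose by 0.66 on the log2 scale between E8 and E18 (standard error 0.19, limma adjusted p = 0.0124). The call was lost without E8 replicate 1 (0.125), E8 replicate 2 (0.0822), E18 retina replicate 1 (0.0573) or E18 retina replicate 2 (0.0621). Neither single step was called, with log2 fold changes of 0.41 to E16 (limma adjusted p = 0.0822) and 0.25 from E16 to E18 (limma adjusted p = 0.381). DESeq2, an alternative test, did call the step to E16 (adjusted p = 0.0134). So did limma on only the 4 libraries compared (adjusted p = 0.0298) and on values scaled to library totals (0.0084). The fits without cornea replicate 1 or 2 called it too, with the log2 fold change unchanged at 0.41. In all, 5 of 19 settings, the main one included, called this step. The standard error that limma gave ENO1 was the widest of the 8 genes tested here, which ran from 0.11 to 0.19.

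The ratio of ENO1 to ENO2 within a library is free of the scaling between libraries. It was 121 and 123 at E8, 4.75 and 5.12 at E16, 3.05 and 3.39 at E18, and 221 and 238 in cornea. The mean log2 ratio thus fell by 4.63 between E8 and E16 and by 0.62 between E16 and E18, and no groups overlapped. With 2 libraries a group an exact permutation test cannot give a p below 0.333, so none was run on ratios.

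In the later GRCg7b assembly, used for names and gene order alone, TPI1 and ENO2 lie on chromosome 1 with only LRRC23 between them, USP5 before TPI1 and ATN1 after ENO2. The table was made on galGal4, and how reads on overlapping genes were counted is not given in the sources used here. USP5, a deubiquitinase, fell by 0.83 on the log2 scale between E8 and E16 (limma adjusted p = 0.000206). ATN1 had a log2 fold change of -0.07 (limma adjusted p = 0.578). The outer neighbours of TPI1 and ENO2 thus did not rise with them between E8 and E16, and LRRC23 was not among the genes tested. Against cornea both outer neighbours were called higher in E18 retina, as were TPI1, ENO2 and 34.5% of all genes tested. The log2 fold change was 0.78 for USP5 (limma adjusted p = 0.00022) and 0.85 for ATN1 (limma adjusted p = 7.44e-05). Elsewhere RRP12, beside PGAM1, rose between E8 and E16 (log2 fold change 0.41, limma adjusted p = 0.0193). So did CNP1 beside GAPDH (1.58, limma adjusted p = 0.0198), from a mean of only 2.84 normalized counts, and GYS2 beside LDHB. No other tested neighbour was called higher in that comparison. PGK1 was matched to GRCg7b only as a synonym of PGK2, so no neighbours are given for it.

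Lactate dehydrogenase is built from the subunits of LDHA, known as the muscle form and tied to lactate production, and LDHB, known as the heart form. LDHA had 70085 and 78159 normalized counts at E8, 94931 and 97732 at E16, 124917 and 124359 at E18, and 64375 and 63412 in cornea. The levels ran upwards from cornea to E18 retina with no overlap. LDHA rose by 0.75 on the log2 scale between E8 and E18 (standard error 0.15, limma adjusted p = 0.00198). The step to E16 was not called (log2 fold change 0.38, limma adjusted p = 0.0507), nor was the step from E16 to E18 (0.37, limma adjusted p = 0.114). DESeq2 called both (adjusted p = 0.00565 and 0.0201), and edgeR called the step to E16 (adjusted p = 0.0443). That step was also called by limma on only the 4 libraries compared (adjusted p = 0.0306). The same held for values scaled to library totals (limma adjusted p = 0.0065) and for a pseudocount of 0.5 (0.049). Without cornea replicate 1 or 2 both steps were called, with log2 fold changes unchanged at 0.38 and 0.37. Of 19 settings, 7 called the step to E16 and 3 the step from E16 to E18.

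LDHB had 11701 and 11333 normalized counts at E8, 18516 and 19034 at E16, 25028 and 23932 at E18, and 11734 and 13979 in cornea. It rose by 0.71 on the log2 scale between E8 and E16 (standard error 0.12, limma adjusted p = 0.000931) and by 1.09 between E8 and E18 (standard error 0.12, limma adjusted p = 6.42e-05). The step from E16 to E18 gave 0.38 (limma adjusted p = 0.0586). It was called by DESeq2 (adjusted p = 0.0329) and by limma on only the 4 libraries compared (adjusted p = 0.0191). Scaled to library totals it was called as well (limma adjusted p = 0.049). Without cornea replicate 1 or 2 it was also called, with the log2 fold change unchanged at 0.38, which made 5 of 19 settings. Both subunits stood higher at each later retina stage. The mean log2 ratio of LDHA to LDHB changed by -0.325 between E8 and E16 and by -0.0108 between E16 and E18. LDHA held 5.99 and 6.90 times the normalized count of LDHB at E8, 5.13 and 5.13 times at E16, 4.99 and 5.20 times at E18, and 5.49 and 4.54 times in cornea. Both E8 ratios lay above those of E16 and E18, which overlapped each other, and the cornea ratios spanned those of E16 and E18 retina.

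**Figure D2:**
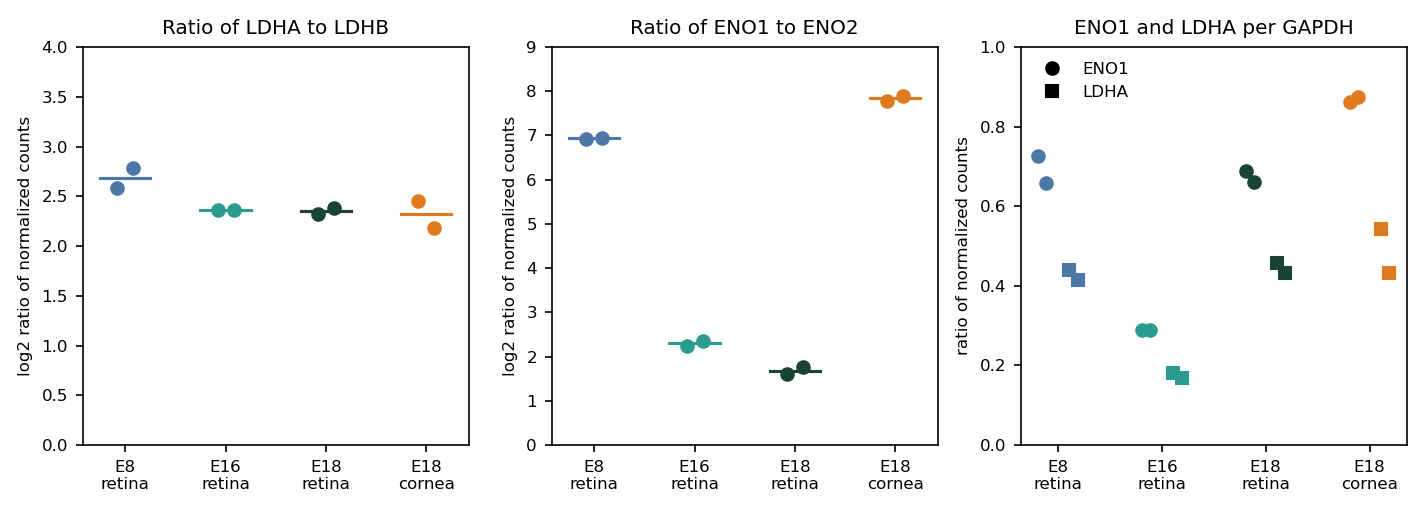
Ratios of normalized counts within each library, with 2 libraries a group: log2 ratio of LDHA to LDHB (left), log2 ratio of ENO1 to ENO2 (middle), and ENO1 and LDHA per GAPDH on a linear axis (right). The ENO1 to ENO2 ratio falls from 121 and 123 at E8 to 3.05 and 3.39 at E18, the LDHA to LDHB ratio stays between 4.54 and 6.90, and both genes per GAPDH are lowest at E16.

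Values relative to GAPDH are given as a description, since the level of GAPDH at E16, which was behind the choice of these genes, sets much of their course. ENO1 per GAPDH was 0.692 ± 0.0488 (SD, n = 2) at E8, 0.289 ± 4.98e-05 at E16 and 0.675 ± 0.0184 at E18. LDHA per GAPDH was 0.427 ± 0.0173 at E8, 0.175 ± 0.00811 at E16 and 0.444 ± 0.0181 at E18. In these libraries both ratios were lower at E16 than at E8 and E18. PGK1, called higher at E16 than at E8, had a ratio to GAPDH of 0.0855 ± 0.00625 at E8 and 0.058 ± 0.0032 at E16. Of the 8 other genes, ENO2 was the exception, with a ratio of 0.00567 ± 0.000465 at E8 and 0.0587 ± 0.00306 at E16, and TPI1 overlapped, at 0.0863 and 0.0777 against 0.0788 and 0.0802.

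Read out together, 6 of the 8 genes tested rose between E8 and E16, against 34.1% of all genes tested that were called higher. The 2 not called, ENO1 and LDHA, had both E16 libraries above both E8 libraries, as did all 8 genes and 43.5% of all genes tested. The median log2 fold change of the 8 genes was 0.95, beside 0.04 over all genes tested. Between E8 and E18 all 8 rose, against 35.0% of all genes called higher, with a median of 1.25 beside 0.04. Between E16 and E18, HK1, PGK1 and ENO2 rose, 3 of 8 against 10.7% of all genes called higher, with a median of 0.38 beside 0.02. Both E18 libraries lay above both E16 libraries in 6 of the 8, against 39.6% of all genes. The count of called genes was 2 or less when any 1 library of E16 or E18 retina was left out, with none called without E16 replicate 1 or E18 retina replicate 1 (3 and 2 genes at an unadjusted p under 0.05 by limma), while DESeq2 called 5. These comparisons share groups and are not independent of each other. Without GAPDH, the other genes took 0.92% and 1.00% of the reads on genes at E8, 1.66% and 1.79% at E16, 2.11% and 2.10% at E18, and 0.786% and 0.836% in cornea.

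**Figure D3:**
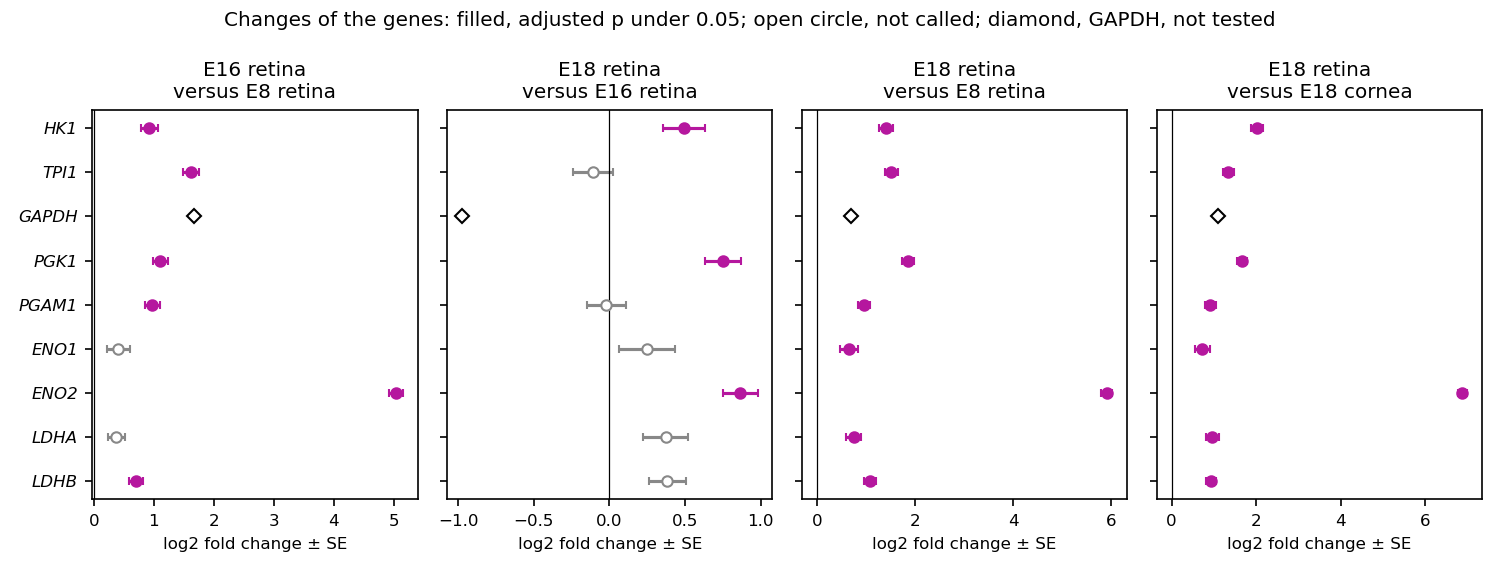
Log2 fold change with its standard error (limma, 2 libraries a group) of the 8 genes tested in 4 comparisons. Filled circles had an adjusted p under 0.05, open circles were not called, and the diamond is GAPDH, given without error or test. From E16 to E18 the values run from -0.97 for GAPDH to 0.87 for ENO2, and in the other comparisons all 9 lie above 0.

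The cornea serves as the reference tissue without retinal neurons. All 8 genes tested were higher in E18 retina than in E18 cornea, against 34.5% of all genes called higher, and the median of their log2 fold changes was 1.15 beside -0.06 over all genes. ENO2 had the largest difference, a log2 fold change of 6.88 (standard error 0.11, limma adjusted p = 2.51e-09), or 118-fold. HK1 followed with 2.02 (standard error 0.14, limma adjusted p = 2.19e-06) and PGK1 with 1.66 (standard error 0.12, limma adjusted p = 3.17e-06). TPI1 differed by 1.34, LDHA by 0.96, LDHB by 0.93 and PGAM1 by 0.92. ENO1 differed by 0.73 (standard error 0.19, limma adjusted p = 0.00687), and was not called when only the 4 libraries compared were fitted (0.0862).

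The genes whose levels followed GAPDH most closely were sought by Pearson's r of log2(normalized count + 1) over the 8 libraries, among 7280 named genes with a group mean of at least 1000 normalized counts. They were MEAF6 (r = 0.99), RPS6KL1 (0.98), DHRS7B (0.98), PRDX6 (0.98) and TMEM9 (0.98). Since GAPDH was highest at E16, genes picked for likeness to it follow that course by construction, and TMEM9 reached the minimum only at E16. MEAF6, a subunit of histone acetyltransferase complexes, had mean normalized counts of 2605 at E8, 4226 at E16, 3299 at E18 and 2237 in cornea. PRDX6, a peroxiredoxin, had 2563, 4848, 3568 and 2560. TPI1 ranked at 211 (r = 0.88), PGAM1 at 239 and ENO2 at 489, and PGK1 was the farthest of the 8 genes, at 1559 (r = 0.65). The closest agreement among the 9 genes was between PGK1 and LDHB and between TPI1 and PGAM1 (r = 0.993 each). LDHA and HK1 followed (r = 0.986). The 8 points fall into 4 groups that share tissue and stage, so these values are descriptions.

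Of 21 other glycolytic enzymes on a list set by function, 12 were tested. Between E8 and E18, 9 rose and 1 fell, between E8 and E16 6 rose and 1 fell, and between E16 and E18 3 rose and 1 fell. Of all genes tested, 35.0%, 34.1% and 10.7% were called higher and 31.4%, 30.3% and 7.87% lower in these comparisons, in the same order. Phosphofructokinase, which commits sugar to glycolysis, rose in both forms tested. PFKM, a further form, is listed at 0 in every library, and the aldolase gene ALDOA is not among the rows, so neither was tested. PFKP had 6663 and 5197 normalized counts at E8, 15644 and 14718 at E16, and 28060 and 27261 at E18. It rose by 2.23 on the log2 scale between E8 and E18 (limma adjusted p = 3.05e-06). PFKL had 1622 and 1639 at E8 and 5039 and 5242 at E16, a log2 fold change of 1.66 (limma adjusted p = 2.97e-06). ALDOC, the brain form of aldolase, rose by 1.92 between E8 and E16 (limma adjusted p = 4.96e-06), from 9660 and 8558 to 34142 and 34604 normalized counts. GPI, the isomerase ahead of phosphofructokinase, rose from 17129 and 14865 at E8 to 46031 and 43174 at E18 (log2 fold change 1.48, limma adjusted p = 2.55e-05). PKM, pyruvate kinase, rose by 0.66 between E8 and E18 (limma adjusted p = 0.00219), with neither step called. DESeq2 called both steps (adjusted p = 0.0285 to E16 and 0.0332 from E16 to E18). So did limma on only the 4 libraries compared, close to the threshold. The fits without cornea replicate 1 or 2 called them too, with log2 fold changes of 0.31 to E16 and 0.35 from E16 to E18. Scaled to library totals, the step to E16 was called (limma adjusted p = 0.0111). LDHD, which acts on D-lactate, rose by 2.94 between E8 and E16 (limma adjusted p = 0.00124) but from only 7.62 and 5.88 normalized counts. ENO4 fell by 2.19 between E8 and E16 (limma adjusted p = 0.01), lost without E8 replicate 2 (0.0593) or E16 replicate 1 (0.0782). HKDC1 fell by 1.18 between E8 and E18 (limma adjusted p = 0.00634).

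Against cornea, 6 of these 12 enzymes were higher in E18 retina and 3 lower, where 34.5% of all genes were called higher and 36.9% lower. ALDOC was higher in retina by 1.54 (limma adjusted p = 9.03e-06). GPI was not called (log2 fold change -0.16, limma adjusted p = 0.349), and its value was 0.0887 when scaled to library totals.

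The transport list covers glucose carriers, monocarboxylate carriers that move lactate, and basigin, a partner protein that brings some of those carriers to the membrane. Of its 17 genes 13 were tested, of which 8 rose and 2 fell between E8 and E16, 5 rose between E16 and E18, and 10 rose and 1 fell between E8 and E18. Over all genes tested, 34.1% and 30.3% were called higher and lower between E8 and E16, and 10.7% and 7.87% between E16 and E18. Between E8 and E18 the shares were 35.0% and 31.4%. BSG, which encodes basigin, had 13209 and 15054 normalized counts at E8, 40640 and 41080 at E16, 61763 and 65337 at E18, and 13461 and 14411 in cornea. Its log2 fold change was 2.17 between E8 and E18 (limma adjusted p = 1.24e-06) and 2.19 between E18 retina and cornea (limma adjusted p = 6.88e-07).

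SLC16A1, the carrier MCT1, differed from BSG in its timing. It had 15903 and 15264 normalized counts at E8, 13937 and 13996 at E16, 37729 and 36797 at E18, and 2979 and 3696 in cornea. Its log2 fold change was -0.16 to E16 (limma adjusted p = 0.298) and it rose by 1.42 between E16 and E18 (limma adjusted p = 0.00143). SLC16A3, the carrier MCT4, had 13143 and 12744 normalized counts in E18 retina and 454 and 468 in cornea, a log2 fold change of 4.81 (limma adjusted p = 1.88e-08). Between E8 and E18 it rose by 0.49 (limma adjusted p = 0.00699). SLC16A7, the carrier MCT2, rose by 1.22 between E8 and E16 (limma adjusted p = 0.00155).

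The glucose carriers GLUT1 and GLUT3 moved in opposite directions between E8 and E16. SLC2A1, which encodes GLUT1, had 15471 and 14279 normalized counts at E8, 6743 and 6909 at E16, 12171 and 11586 at E18, and 2348 and 2096 in cornea. It fell by 1.12 on the log2 scale between E8 and E16 (limma adjusted p = 3.19e-05). Its E16 libraries were the lowest of the retina. It was the 1 gene of the list that fell between E8 and E18 (log2 fold change -0.32, limma adjusted p = 0.026), a call lost when scaled to library totals (0.0843) and without E8 replicate 1 (0.0989), E16 replicate 1 or 2 (0.0513 each), E18 retina replicate 1 (0.0752) or E18 retina replicate 2 (0.138). SLC2A3, which encodes GLUT3, rose by 1.44 between E8 and E16 (limma adjusted p = 2.21e-05), from 868 and 810 to 2320 and 2222 normalized counts. SLC2A12 had the largest rise of the list between E8 and E16, 3.89 from 8.20 and 16.7 normalized counts at E8 (limma adjusted p = 1.38e-05). Against cornea, 6 genes of the list were higher in E18 retina and 4 lower. Of all genes tested, 34.5% and 36.9% were called higher and lower there, so these counts lie near the background. SLC2A5, the fructose carrier GLUT5, stood lowest relative to cornea, with a log2 fold change of -4.98 (limma adjusted p = 2.74e-06) and 2334 and 1823 normalized counts in cornea.

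**Figure D4:**
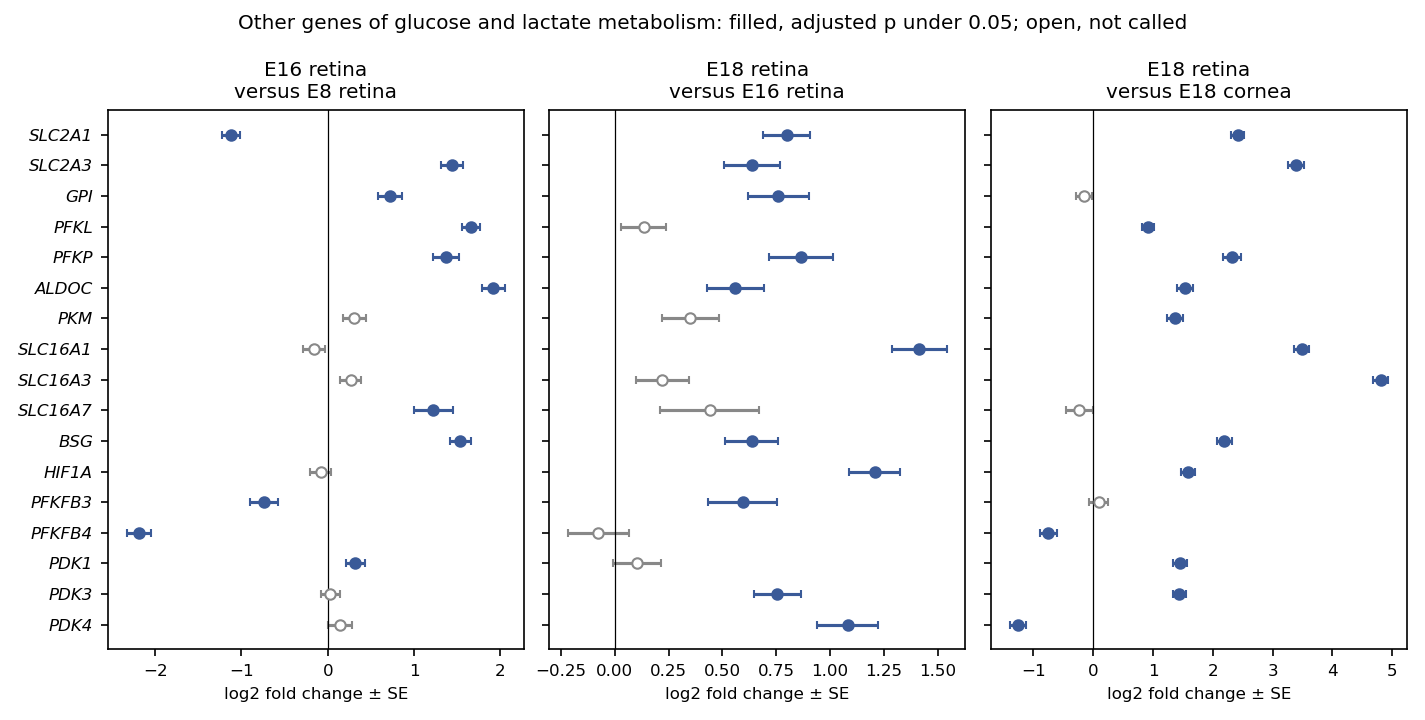
Log2 fold change with its standard error (limma, 2 libraries a group) of 17 other genes of glucose and lactate metabolism in 3 comparisons, each panel with its own axis range. Filled circles had an adjusted p under 0.05. SLC2A1 and PFKFB4 fall and SLC2A3, PFKL, PFKP, ALDOC and BSG rise from E8 to E16, SLC16A1 and HIF1A rise from E16 to E18, and SLC16A3 stands at 4.81 against cornea.

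Of 10 tested regulators of flux through the pathway, 6 fell between E8 and E16, where 30.3% of all genes were called lower, and the other 4 were not called. PFKFB4, which makes the activator of phosphofructokinase, fell from 3295 and 3435 normalized counts at E8 to 763 and 711 at E16 (log2 fold change -2.19, limma adjusted p = 3.25e-06). PFKFB3 fell by 0.74 (limma adjusted p = 0.00324). Between E16 and E18, 2 regulators rose and 2 fell, beside 10.7% and 7.87% of all genes called higher and lower. HIF1A, the oxygen-regulated subunit of a transcription factor that activates many glycolytic genes, had 9413 and 9862 normalized counts at E16 and 23759 and 20859 at E18. It rose by 1.21 between them (limma adjusted p = 0.00193). Between E8 and E16 its log2 fold change was -0.08 (limma adjusted p = 0.562), or 0.0344 when scaled to library totals. MYCN fell by 2.86 between E8 and E18 (limma adjusted p = 2.05e-06), and MYC was lower in E18 retina than in cornea by a log2 fold change of -2.21 (limma adjusted p = 5.96e-05). Against cornea, 2 of the 10 were higher in E18 retina and 4 lower, beside 34.5% and 36.9% of all genes. These counts lie near or below the background.

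Of 12 tested genes of a list of hypoxia-responsive genes outside glycolysis, 5 rose and 3 fell between E8 and E16, 6 rose and 1 fell between E16 and E18, and 2 were higher and 8 lower in E18 retina than in cornea. Over all genes tested, 34.1% and 30.3% were called higher and lower in the first of these comparisons, 10.7% and 7.87% in the second and 34.5% and 36.9% in the third, so the counts between E8 and E16 lie near the background. Between E8 and E18, 8 of the 12 rose and 2 fell, beside 35.0% and 31.4% of all genes called higher and lower. EGLN3, an oxygen sensor, rose from 135 and 148 normalized counts at E16 to 529 and 585 at E18 (log2 fold change 1.97, limma adjusted p = 0.00241). CA9, a carbonic anhydrase, fell from 1543 and 1345 at E8 to 45.1 and 43.9 at E18 (log2 fold change -4.99, limma adjusted p = 5.41e-07). ADM had a single read in the E8 libraries and 134 and 92.3 normalized counts at E16. LOX, a collagen-crosslinking enzyme, rose by 5.64 between E8 and E18 and was lower in retina than in cornea by -5.63 (limma adjusted p = 4.52e-08 and 3.50e-08). NDRG1 was higher in E18 retina than in cornea by 2.13 (limma adjusted p = 1.27e-06).

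Entry of pyruvate into mitochondria was represented by 10 tested genes, of which 1 rose and 3 fell between E8 and E16 (2 to 5 fell when 1 library was left out), 2 rose between E16 and E18, and 3 were higher and 3 lower in E18 retina than in cornea. Over all genes tested, 34.1% and 30.3% were called higher and lower between E8 and E16, and 10.7% and 7.87% between E16 and E18. Against cornea the shares were 34.5% and 36.9%. The falls between E8 and E16, the rises between E16 and E18 and both counts against cornea thus lie near the background. The count of rises between E8 and E16 lies below it. The 2 that rose between E16 and E18 were kinases that inhibit pyruvate dehydrogenase. PDK4 had 858 and 718 normalized counts at E16 and 1727 and 1602 at E18, a log2 fold change of 1.08 (limma adjusted p = 0.00429, or 0.0649 without E18 retina replicate 1). PDK3 rose by 0.76 (limma adjusted p = 0.00517), lost without E16 replicate 1 (0.057) or E18 retina replicate 1 (0.0706). PDP2, a phosphatase that activates the complex, fell by 0.85 between E8 and E16 (limma adjusted p = 0.00476). The 1 that rose between E8 and E16 was PDK1 (log2 fold change 0.32, limma adjusted p = 0.033), lost without E8 replicate 2 (0.0797), E16 replicate 1 (0.183), E16 replicate 2 (0.0744), E18 retina replicate 1 (0.0649) or E18 retina replicate 2 (0.0648). PDK1 was higher in E18 retina than in cornea by 1.45 (limma adjusted p = 4.01e-06), and PDK4 was lower by a log2 fold change of -1.26 (limma adjusted p = 4.60e-05).

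Of 18 tested genes of side branches and the reverse path, 6 rose and 4 fell between E8 and E16 (2 fell without E8 replicate 1 or any 1 library of E16 or E18 retina), 3 rose and 1 fell between E16 and E18, and 6 were higher and 9 lower in E18 retina than in cornea. Between E8 and E16, 34.1% of all genes tested were called higher and 30.3% lower, so the counts of that comparison lie near or below the background. Between E16 and E18 the shares were 10.7% and 7.87%, and against cornea 34.5% and 36.9%. GYS2, the liver form of glycogen synthase, had no read at E8, 436 and 569 normalized counts at E16 and 1554 and 1405 at E18. Against E8, its level was at least 171-fold higher at E16 and at least 503-fold higher at E18, set against 3 reads in the shallower E8 library. GYS2 lies next to LDHB in GRCg7b, and LDHB changed by far less. PGM1, which links glycogen to glycolysis (chosen after its values were seen), rose by 2.42 between E8 and E16 (limma adjusted p = 1.55e-06). PGM2 fell by 1.02 in the same comparison (limma adjusted p = 0.000466). FBP1, an enzyme of gluconeogenesis, had 6246 and 7360 normalized counts in cornea and 25.1 and 31.8 in E18 retina (log2 fold change -7.86, limma adjusted p = 1.45e-07). Of the list's enzymes of the pentose phosphate path, PGD, TKT, TALDO1 and RPIA were tested, and these 4 were looked at after their values were seen. Each was lower in E18 retina than in cornea, with log2 fold changes of -1.98 for PGD, -1.73 for TKT, -2.67 for TALDO1 and -4.37 for RPIA (limma adjusted p = 3.80e-06, 1.39e-06, 1.11e-07 and 2.28e-07). TKT had 40632 and 44686 normalized counts in cornea and 12743 and 12886 in E18 retina, and TALDO1 had 24680 and 23439 against 3875 and 3709. The list also held GBE, entered as an older name of the branching enzyme gene GBE1. The table gives both, so GBE is counted here without a role. It rose by 6.47 between E16 and E18 (limma adjusted p = 0.00475, or 0.054 without E18 retina replicate 1).

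The counts of most of these lists between E16 and E18 were lower in fits that left 1 library in E16 or E18 retina. The cause was not tested. When 1 library of E16 or E18 retina was left out, at most 2 of the 3 rises of other glycolytic enzymes were counted, 1 to 3 of the 5 of the transport list, 1 of the 2 of regulators, at most 2 of the 3 of side branches and 1 or 2 of the 6 of hypoxia-responsive genes. Of the changes between E16 and E18 named among these other genes, those of SLC16A1, HIF1A and EGLN3 were called in every fit that left out 1 library.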

How the data were processed

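Libraries were made from poly(A) RNA and sequenced as paired 125 bp reads. The authors used STAR 2.5.1b for alignment (galGal4), featureCounts 1.5.0 for gene counts and DESeq2 1.6.2 for normalization. The deposited table gives a signal per gene and library, the count divided by a size factor. The annotation release and the use of strand are not given in the sources used here. Dividing by what 1 read is worth in a library gave whole reads for 100% of values (largest deviation 6.9e-05, tolerance 0.001).

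limma 3.58.1 in R 4.3.3 was fitted to log2(value + 1), with eBayes and a mean-variance trend and 1 term per group over all 8 libraries. Genes were kept by filterByExpr of edgeR 4.0.16 with a minimum count of 10. The table held values divided by size factors, so count tests were alternatives. The pipeline was tested on simulated data. edgeR, DESeq2 1.42.0, other scalings, pseudocounts and filters, the fit of 4 libraries, adjustment over genes with a symbol, the replicate block and leaving out each library were alternatives. On recovered reads edgeR called 8625 genes between E8 and E16, 2736 between E16 and E18 and 9456 against cornea, and DESeq2 called 8356, 3003 and 9138. Replicate differences of 2 groups correlated at -0.05 to 0.05 over genes. Since each group gives a single such difference, this cannot settle whether replicate numbers pair libraries.

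Members and lists were chosen with earlier results of these data known. Genes named are the members, a fixed choice from 6 pathway lists, the called gene with the largest rise and fall in each list and comparison (not all are described, and 1 is not reported here), and the 5 most like GAPDH. Marker sums cover genes with reads. The limit of 3 reads covers counting error only. Gene order came from GRCg7b, and no sequence was used here.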

Additional observations from a re-analysis of the deposited data

How the results depend on the processing

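Between E8 and E16, between E8 and E18 and between E18 retina and cornea, the counts of all genes called and of the glycolysis and lactate genes called stayed within 1.5 times under every alternative run. Between E16 and E18 they did not. All genes called there numbered 2450, against 4657 when only the 4 libraries compared were fitted, and 109 to 3112 when 1 library was left out. The cause was not tested. Of the 8 glycolysis and lactate genes tested, DESeq2 called 5 in that comparison in place of 3, and leaving out 1 library gave 0 to 4. With the replicate number as a block, 2 of them and 2260 of all genes were called, and HK1 lost its call. The block ended no other call among the glycolysis and lactate genes. Over all 19 settings the log2 fold change between E16 and E18 ran from 0.80 to 0.93 for ENO2. For PGK1 it ran from 0.70 to 0.77 and for HK1 from 0.41 to 0.57. The value of PGAM1 between E16 and E18 ran from -0.0924 to 0.0519 when 1 library was left out, turning without E18 retina replicate 1, and those of HIF1A between E8 and E16 and of GPI against cornea turned to 0.0344 and 0.0887 when scaled to library totals. None of these was called. Scaling to library totals moved the median log2 fold change of all genes from 0.04 to 0.16 between E8 and E16 and from -0.06 to 0.19 between E18 retina and cornea, and GAPDH in the latter to 1.33. Under that scaling the 8 genes were called higher in both. By Spearman's rho 33 genes tied at or above the fifth value and no top 5 is defined, and these 33 held 2 of the 5 genes named. The difference of log2 LDHA to LDHB ratios between E16 and E8 was -0.325. It ran from -0.43 to -0.22 over the fits that left out 1 library. That of ENO1 to ENO2 was -4.63 and ran from -4.68 to -4.58.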
